A study of Homo sapiens with 37 samples.

Results

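RNA collected by nuclear labelling was set against RNA collected by labelling without a targeting partner. The pulldown over input of APEX-CBX1 was compared with the pulldown over input of APEX-GFP, and the pulldowns and the inputs were also compared directly. The rule took 8 libraries, 2 inputs and 2 pulldowns of each construct, of the 20 libraries labelled Naive with 5 constructs and the 37 of the series. All 8 came from HEK293T cells, a human embryonic kidney line, under that Naive condition, without added stress. Each culture had biotin-phenol at 500 µM for 30 min and H2O2 at 1 mM for 1 min, controls included. RNA was extracted with TRIzol, and biotinylated RNA was taken on streptavidin beads. The other 12 naive libraries, of C1-APEX, APEX-eIF4E and APEX-eIF4A, entered the model and give the levels set beside those of CBX1 and GFP. The labels give neither the promoter, the clone nor the level of any fusion protein.

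APEX is an engineered peroxidase that, with hydrogen peroxide, turns biotin-phenol into a short-lived radical which attaches biotin to molecules close by. CBX1 is a chromodomain protein of the HP1 family, which binds methylated histone H3 in heterochromatin, so a fusion to it places the enzyme at chromatin in the nucleus. GFP has no such binding partner and can occupy both the cytosol and the nucleus. Subtracting each construct's own input takes out how abundant an RNA was in those cells, and subtracting GFP takes out what an untargeted peroxidase labels.

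The counts are listed by versioned Ensembl gene ID, and 0 of the 12427 tested IDs could be paired with a name in the tables used here. The nuclear label was therefore not checked against nuclear RNAs, nor the bait and the cell line against their own genes. Any ID described below may be one of those genes. The 23 gene lists drawn up for nuclear, cytosolic, ribosomal and other RNAs could not be applied. The IDs are described below by level, by profile over the constructs and by rank, and 4 are printed.

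The 8 libraries held 1718517 to 2996415 counts, of which the 10 most abundant IDs of the 20 naive libraries took 59.8% to 70.9%. That left 533801 to 1204531 counts for all other IDs. Replicates correlated at 0.904 to 0.954 over the log2 levels of tested IDs, which are not independent. Chi-square per ID, near 1 where only counting error separates replicates, was 4.97 for the CBX1 pulldowns and 3.29 for the GFP pulldowns. It was 1.51 for the CBX1 inputs and 1.31 for the GFP inputs, so by this measure pulldowns varied more between replicates than inputs did. The measure used raw counts and grows with depth. Outside the 10 most abundant IDs, the CBX1 pulldowns held 1204531 and 889710 counts and the CBX1 inputs 533801 and 541894. The GFP pulldowns held 644259 and 749665 and the GFP inputs 711098 and 713366. The labels do not say whether replicates were separate cultures, so the p-values rest on the spread from library to library, which may be technical.

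After the inputs were taken into account, 20 IDs differed between CBX1 and GFP at an edgeR adjusted p under 0.05, which are referred to as called. Of these, 17 were higher and 3 lower for CBX1. The calls make up 0.161% of tested IDs, with 0.137% higher and 0.0241% lower. The higher IDs had log2 differences of 1.17 to 2.69 with a median of 1.57, and the lower ones of -0.90 to -0.74 with a median of -0.81. Over all tested IDs the median difference was 0.02. An unadjusted p under 0.05 was found for 912 IDs, or 7.34% of those tested. The split of directions depended on the setting. It was 25 higher and 0 lower when library size replaced TMM (850 IDs at an unadjusted p under 0.05), 30 higher and 0 lower without a count filter (1288 IDs), and 19 higher and 25 lower with DESeq2, which differs from edgeR in more than its scaling. The count was 0 without replicate 1 of the CBX1 input, GFP input, CBX1 pulldown or GFP pulldown, where 694, 628, 662 and 988 IDs kept an unadjusted p under 0.05. It was 2 without replicate 2 of either input, 14 without CBX1 pulldown replicate 2 and 21 without GFP pulldown replicate 2, where 1137 and 994 IDs had an unadjusted p under 0.05. The count thus depended on which library was left out.

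The 20 IDs did not form a single kind. The 17 higher ones fell into 3 profiles by the pulldown over input of CBX1 itself, a grouping made after their values were seen and therefore given without a test. For 5 IDs the CBX1 pulldown held more than 2-fold the input level, for 8 it held slightly more, and for 4 it held less. So for 12 of the 17, a higher value than GFP did not come with an RNA enriched more than 2-fold over its own input by CBX1. In the last 4 it meant a smaller loss in the CBX1 pulldown than in the GFP pulldown.

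**Figure D1:**
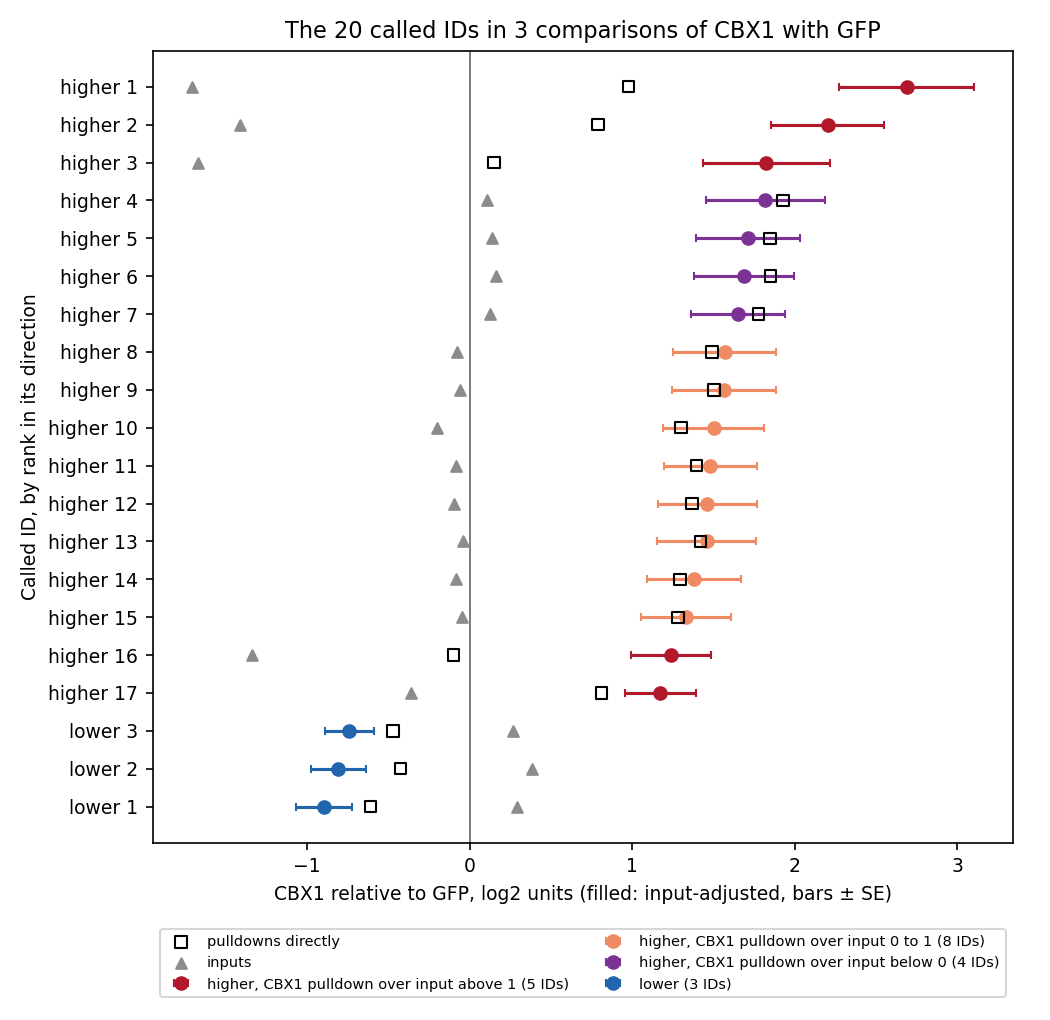
Log2 difference of CBX1 relative to GFP for each of the 20 called IDs, one per line, ranked by size within its direction; filled circles show the input-adjusted difference with its SE, open squares the pulldowns directly and triangles the inputs. In the 12 IDs of the middle 2 profiles squares lie close to circles and triangles lie near 0, whereas in 4 of the 5 IDs of the first profile the triangles lie below -1.

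The first profile, IDs that the CBX1 pulldown held above its input, had 5 members. Their log2 pulldown over input was 1.63 to 3.42 for CBX1, with a median of 2.11. The medians were 0.73 for GFP, 0.69 for C1, 0.36 for eIF4E and 0.28 for eIF4A. The input-adjusted difference from GFP had a median of 1.82, against 0.79 between the pulldowns and -1.41 between the inputs. In 4 of the 5 the inputs differed by more than 1 log2 unit. CBX1 had the lowest input mean of the 5 constructs for 5 of 5 of these IDs, against 22.5% of all tested IDs. The contrast that called them subtracts that input, so this share carries no test. CBX1 had the highest pulldown mean for 1 of them and the lowest for 1. In levels, then, their CBX1 pulldown was not the one that stood apart.

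ENSG00000269821.1 had the largest of these differences. The CBX1 pulldowns measured 118.6 and 72.4 CPM, which are counts scaled to library size with TMM factors, and the GFP pulldowns 47.7 and 49.8 CPM. The CBX1 inputs measured 7.55 and 10.3 CPM and the GFP inputs 31.8 and 27.0 CPM. The CBX1 pulldowns lay above the GFP pulldowns and the CBX1 inputs below the GFP inputs, with no overlap in either. The inputs of the other constructs had means of 34.8 to 49.9 CPM, so the low input was measured in CBX1 libraries, from 12 and 17 counts.

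Its log2 pulldown over input was 3.42 ± 0.31 (SE) for CBX1, against 0.73 ± 0.26 for GFP, 0.72 ± 0.25 for C1, 0.77 ± 0.24 for eIF4E and 0.40 ± 0.26 for eIF4A. The input-adjusted difference was 2.69 ± 0.41 (SE; edgeR adjusted p = 0.00567). It is the sum of 0.98 ± 0.23 between the pulldowns (edgeR adjusted p = 0.0240) and 1.71 from the inputs, which differed by -1.71 ± 0.35 (edgeR adjusted p = 0.0426). Without CBX1 pulldown replicate 1 the pulldown difference was 0.57 (edgeR adjusted p = 0.525), and the input-adjusted one 2.28 (edgeR adjusted p = 0.0548). The pulldown call was also lost without GFP pulldown replicate 1 or 2 (edgeR adjusted p = 0.172 and 0.133). The input call was lost in each of the 4 fits with 1 input left out (-1.95 to -1.51; edgeR adjusted p = 0.171 to 1) and with library size in place of TMM (edgeR adjusted p = 0.0700). DESeq2 gave an input-adjusted difference of 2.68 ± 0.48 (SE) with no adjusted p. The threshold was therefore not applied to this ID there, which differs from a call tested and lost. The adjusted call was also lost when replicate 1 of the CBX1 input (2.48), of the GFP input (2.57) or of the GFP pulldown (2.66) was left out.

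The second-ranked higher ID measured 53.1 and 53.8 CPM in the CBX1 pulldowns, 24.3 and 37.1 in the GFP pulldowns, 14.5 and 20.01 in the CBX1 inputs and 46.7 and 45.3 in the GFP inputs. Both the pulldowns and the inputs were apart, in opposite directions. The pulldown difference of 0.79 ± 0.23 did not reach the threshold (SE; edgeR adjusted p = 0.0766). The input difference was -1.41 ± 0.26 (SE; edgeR adjusted p = 0.0263). The input-adjusted difference was 2.20 ± 0.35 (SE; edgeR adjusted p = 0.00567). GFP gave -0.58 in pulldown over input and CBX1 gave 1.63, while eIF4E gave -0.54, eIF4A -0.66 and C1 -0.05 ± 0.23 (SE), a value at input level. Only the CBX1 value was above 0.

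The third-ranked ID measured 41.1 and 37.6 CPM in the CBX1 pulldowns and 31.6 and 39.3 in the GFP pulldowns, which overlapped. The CBX1 inputs were at 6.29 and 6.06 CPM, from 10 counts each, and the GFP inputs at 17.7 and 22.0. Here the adjusted difference of 1.82 ± 0.39 (SE; edgeR adjusted p = 0.0474) lay almost wholly between the inputs (-1.67), with 0.15 between the pulldowns.

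The ID at rank 16 was the most abundant of the 20. Its CBX1 inputs held 867 and 928 CPM and its GFP inputs 2333 and 2208, while the CBX1 pulldowns held 4862 and 2906 and the GFP pulldowns 3991 and 4332. The pulldowns overlapped and differed by -0.10, and the inputs differed by -1.34 ± 0.18 (SE; edgeR adjusted p = 0.000124). The CBX1 inputs rested on 1379 and 1530 counts, far more than those of the 3 leading IDs.

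The ID at rank 17 was the member whose difference lay mostly between the pulldowns. They measured 811 and 583 CPM for CBX1 and 356 and 438 for GFP (0.81 ± 0.15, SE; edgeR adjusted p = 0.00321). The inputs measured 191 and 202 CPM for CBX1 and 278 and 227 for GFP, apart by -0.36 on the log2 scale without reaching the threshold.

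The second profile had 8 members, with log2 pulldown over input of 0.08 to 0.61 for CBX1. For GFP the range was -1.38 to -0.85, for C1 -0.56 to 0.01, for eIF4E -2.52 to -1.97 and for eIF4A -2.55 to -2.01. The order of the constructs was the same for the 8 in its upper part, with CBX1 first, C1 next and GFP after it. These RNAs measured near their input level or slightly above it in the CBX1 pulldown, and below it in the pulldowns of GFP and both translation factors.

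Levels by library show where the difference arose. In the CBX1 pulldowns the 8 IDs measured 110 to 278 CPM in replicate 1 and 107 to 306 in replicate 2. In the GFP pulldowns they measured 36.0 to 79.8 CPM in replicate 1 and 51.5 to 125 in replicate 2. The inputs were near each other, with medians of 204 and 193 CPM for CBX1 and 209 and 205 for GFP. The direct pulldown difference was 1.28 to 1.503 and the input difference -0.20 to -0.04, which gave input-adjusted differences of 1.33 to 1.57 (edgeR adjusted p = 0.0282 to 0.0383). The CBX1 pulldown mean was the highest of the 5 constructs for 8 of 8, against 21.4% of tested IDs. The contrast that called these IDs uses the same pulldowns, so this share carries no test. C1 was close to CBX1, with a median mean level of 207 CPM against 230 for CBX1, while GFP had 90.02, eIF4E 77.4 and eIF4A 57.6.

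These 8 IDs moved almost as a single one. After each was centred on its own mean, their log2 levels lay within 0.52 of each other in each of the 20 libraries. Near-identical copies of a gene can share reads, and how the authors' counting treated such reads is not given in the sources used here, so the 8 may not be 8 independent RNAs. GFP pulldown replicate 1 was lower than replicate 2 for each of them, with medians of 71.0 and 108 CPM. With 1 library left out in turn, 7 of the 8 were called without GFP pulldown replicate 2 and 0 in each of the other 7 fits.

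The third profile had 4 members, which every construct's pulldown held below input. CBX1 had the smallest loss, with a log2 pulldown over input of -1.63 to -0.91. The range was -2.80 to -2.03 in C1, -3.34 to -2.56 in GFP, -3.52 to -2.76 in eIF4A and -4.19 to -3.16 in eIF4E. The input-adjusted differences of 1.65 to 1.82 (edgeR adjusted p = 0.0207 to 0.0371) arose between the pulldowns, which differed by 1.78 to 1.93, with inputs apart by 0.11 to 0.16. CBX1 had the highest pulldown mean of the 5 constructs for 4 of 4, which the contrast that called them favours.

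The most abundant of the 4, at rank 6, measured 434 and 283 CPM in the CBX1 pulldowns and 87.1 and 112 in the GFP pulldowns. Its inputs held 768 and 664 CPM for CBX1 and 635 and 645 for GFP. Even the lower CBX1 pulldown was above both GFP pulldowns, and both constructs' pulldowns were below both of their inputs. CBX1 pulldown replicate 1 was above replicate 2 in each of the 4, with medians of 158 and 103 CPM. After centring, these 4 IDs lay within 0.79 log2 units of each other in each of the 20 libraries. The 3 lower IDs lay within 0.83 by that measure, and the spread among IDs that were not called was not measured. Whether these 4 were called depended on which library was left out, with inputs and GFP pulldowns among those that mattered as well as CBX1 pulldowns.

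**Figure D2:**
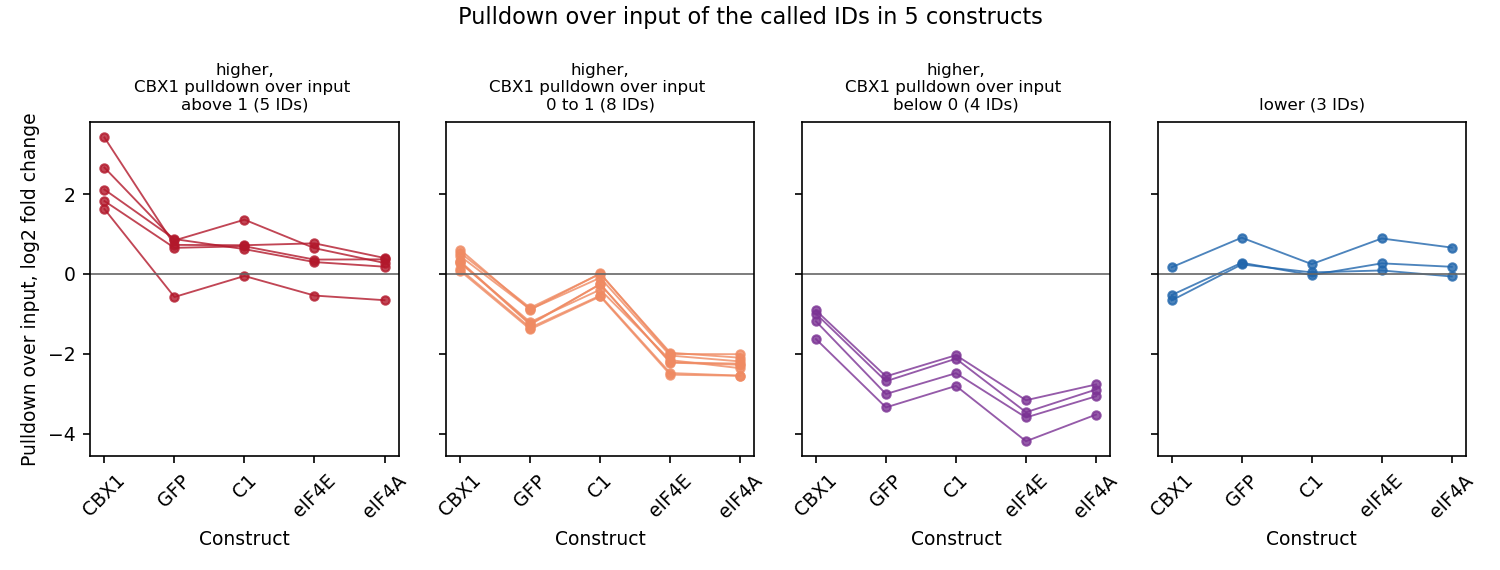
Log2 pulldown over input of each called ID in the 5 constructs, one line per ID and one panel per profile. The line at CBX1 is the highest point of each of the 17 higher IDs and the lowest of each of the 3 lower ones, and the panels differ in whether that point lies above, near or below 0.

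The 3 lower IDs showed small differences at high levels. Their log2 pulldown over input was -0.66 to 0.17 for CBX1 and 0.24 to 0.91 for GFP. The pulldown difference was -0.61 to -0.43 and the input difference 0.27 to 0.38. CBX1 had the lowest pulldown mean of the 5 constructs for 3 of 3 and the highest input mean for 2 of 3. The shares over tested IDs were 18.6% and 21.3%. The contrast that called these IDs uses the same libraries, so the shares carry no test. C1 was close to CBX1 in the pulldowns, with a median mean level of 211 CPM against 206 for CBX1. None of the 3 calls was kept with library size in place of TMM, without a count filter or with the replicate block.

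ENSG00000130726.10 had the largest decrease. The CBX1 pulldowns measured 192 and 221 CPM and the GFP pulldowns 322 and 307 CPM, with no overlap. The CBX1 inputs measured 357 and 295 CPM and the GFP inputs 277 and 256 CPM, in the opposite order. The pulldowns of C1, eIF4E and eIF4A had means of 211, 246 and 230 CPM, so in pulldowns GFP, rather than CBX1, was farther from the other 3. In pulldown over input CBX1 stood apart, at -0.66 ± 0.12 (SE) against 0.24 ± 0.12 for GFP and -0.06 to 0.09 for the others. The input-adjusted difference was -0.90 ± 0.17 (SE; edgeR adjusted p = 0.0282) and the pulldown difference -0.61 ± 0.12 (edgeR adjusted p = 0.00611). The inputs differed by 0.29 ± 0.12 without reaching the threshold (edgeR adjusted p = 0.986). Scaled by library size only, the input-adjusted difference was -0.76 (edgeR adjusted p = 0.174), and it passed the threshold in 2 of the 8 fits with 1 library left out. In the other 6 it was -1.05 to -0.75, without CBX1 pulldown replicate 1, GFP pulldown replicate 1 or any of the 4 inputs.

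Across the constructs, CBX1 had the highest pulldown over input of all 5 for 17 of 17 higher IDs. Among the 6385 tested IDs with a difference above 0, 44.4% had CBX1 highest. CBX1 was the lowest for 3 of 3 lower IDs, against 46.7% of the 6042 tested with a difference below 0. In the lower ID of rank 3 the C1 value was close, at 0.25 ± 0.11 (SE) against 0.17 ± 0.11 for CBX1. In pulldown over input, CBX1 and GFP did not overlap between libraries in 17 of 17 higher and 3 of 3 lower IDs, whereas 24.4% of all tested IDs do not overlap, 12.6% higher and 11.8% lower. In the pulldowns alone 18 of the 20 did not overlap, against 42.3% of tested IDs. The contrast that called these IDs also sets these counts, which are given as a description.

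The direct comparison of the pulldowns asked which RNAs differed on the beads before input was considered. It called 190 IDs, 1.53% of those tested, with 87 higher for CBX1 (0.7%) and 103 lower (0.829%). The log2 difference had a median of 1.47 in the higher IDs and -1.04 in the lower ones. Among the higher IDs 74 of 87 changed by more than 1 log2 unit and 19 by more than 2, against 56 and 9 of the 103 lower ones. An unadjusted p under 0.05 was found for 1704 IDs (13.7%). Scaled by library size only, the calls were 70 higher and 39 lower. The count was 36 without CBX1 pulldown replicate 1, 54 and 85 without GFP pulldown replicate 1 and 2, and 142 without CBX1 pulldown replicate 2.

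Some of the higher calls rested on very few GFP counts. For 12 of the 87, the GFP pulldowns together held 3 or fewer counts, and 1 of those had 0. Among the 63 higher IDs with at least 10 counts in each of the 4 pulldowns, the log2 difference was 0.62 to 2.41, with a median of 1.32. Among the 97 lower IDs of that kind it was -3.42 to -0.47, with a median of -1.01. The median of the 87 was 1.47 also with the ID of 0 counts at its bound, 3 counts over the group.

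The pulldown over input of each construct is given here for the IDs called between pulldowns. Over all tested IDs its median was 0.02 for CBX1 and 0 for GFP. In the 87 higher IDs the median log2 pulldown over input was 0.35 for CBX1 and -0.97 for GFP. CBX1 was above 0 in 69 of 87 and GFP in 14. In the 103 lower IDs the medians were -0.14 for CBX1 and 0.55 for GFP, with CBX1 above 0 in 32 and GFP in 90. CBX1 had the highest pulldown mean of the 5 constructs in 66 of the 87 (75.9%), and GFP had the lowest in 55 (63.2%). Among all tested IDs with a pulldown difference above 0 the shares were 41.3% and 34.6%. In the 103 lower IDs CBX1 was lowest in 80 (77.7%) and GFP highest in 62 (60.2%), against 37.0% and 35.9%. These IDs were selected on the same pulldown libraries, so the medians, counts and shares carry no test.

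**Figure D3:**
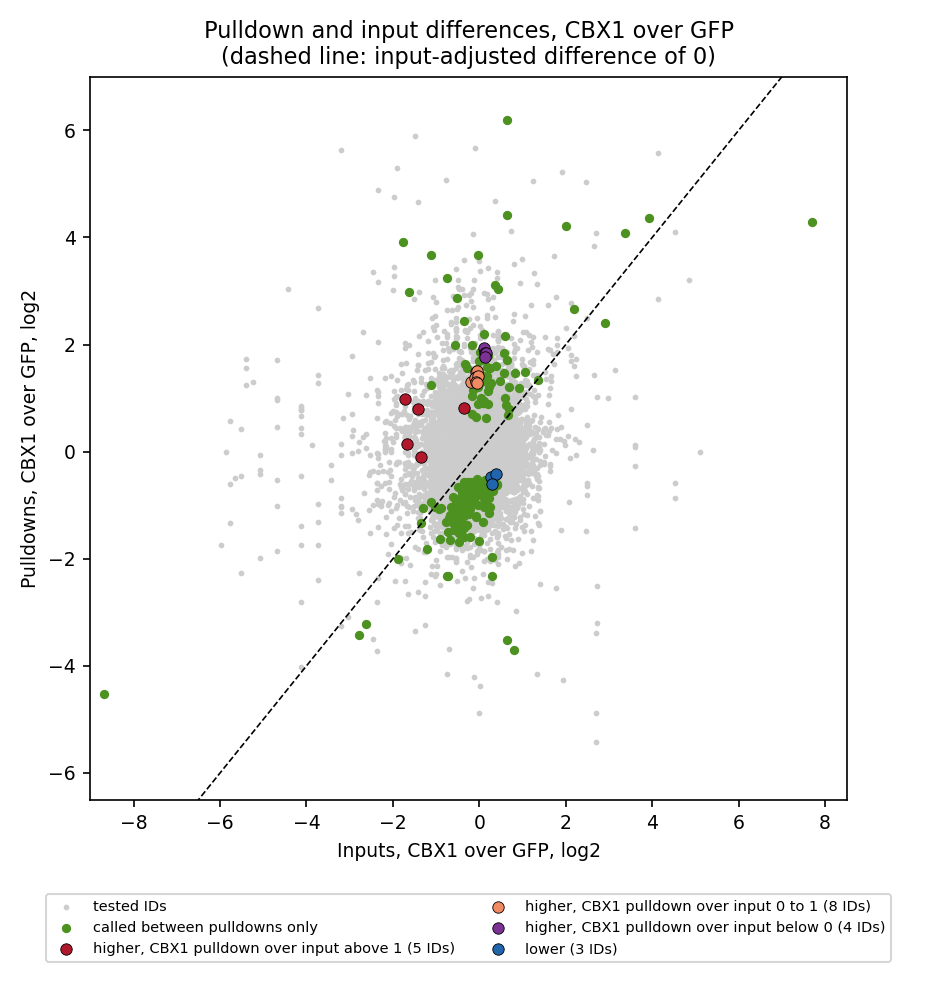
Log2 difference of CBX1 over GFP between the inputs (horizontal) and between the pulldowns (vertical) for the 12427 tested IDs, as fitted; points far out can rest on 0 counts in a group. The dashed line marks equal differences. IDs called after input adjustment lie off it. They lie to its left, with lower CBX1 inputs, or above and below it near an input difference of 0. Green points, called between pulldowns only, include some near the line and far from 0.

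Among the IDs called between the pulldowns, the inputs differed less than the pulldowns, on which those IDs were chosen. The median input difference was 0.09 in the 87 higher and -0.29 in the 103 lower pulldown calls, beside input-adjusted medians of 1.38 and -0.74. These comparisons share their libraries and are set side by side only. Over all tested IDs, the counts of calls did not settle which fraction differed more. With only the libraries compared, 191 of 10823 IDs were called between pulldowns and 161 of 9436 between inputs. With only the 10 naive pulldowns or only the 10 naive inputs, the counts were 28 and 97. For a few RNAs the pulldown difference was already present in the total RNA.

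ENSG00000108468.13 had the largest higher difference among pulldown calls with a mean of at least 3 log2 CPM and at least 10 counts in each of the 8 libraries. The CBX1 pulldowns measured 202 and 205 CPM and the GFP pulldowns 37.0 and 39.3 CPM. The CBX1 inputs measured 229 and 223 CPM and the GFP inputs 29.0 and 31.1 CPM. Both CBX1 fractions were far above both GFP fractions. The other 3 constructs were near GFP, with means of 23.8 to 30.4 CPM in inputs and 40.9 to 46.7 in pulldowns. The pulldowns differed by 2.41 ± 0.19 log2 units (SE; edgeR adjusted p = 5.31e-09) and the inputs by 2.91 ± 0.20 (edgeR adjusted p = 3.53e-10). After input adjustment -0.50 ± 0.28 remained (edgeR adjusted p = 0.731), so the excess in the CBX1 pulldown did not exceed the excess in its input. Whether this ID is the gene of the bait, carried by the construct itself, was not checked.

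ENSG00000126016.12 had the largest lower difference by the same rule. The CBX1 pulldowns measured 10.1 and 11.6 CPM and the GFP pulldowns 112 and 120 CPM. The CBX1 inputs measured 10.1 and 10.9 CPM and the GFP inputs 74.4 and 71.9 CPM. CBX1 was again apart from GFP in both fractions, with no overlap. The other constructs did not all side with GFP. eIF4E had means of 7.05 CPM in inputs and 13.8 in pulldowns, like CBX1, whereas eIF4A had 69.8 and 98.6 and C1 40.9 and 51.2. The pulldowns differed by -3.42 ± 0.25 log2 units (SE; edgeR adjusted p = 1.28e-09), the inputs by -2.79 ± 0.29 (edgeR adjusted p = 1.61e-06) and the input-adjusted values by -0.62 ± 0.41 (edgeR adjusted p = 0.778). The calls of both IDs in pulldowns and inputs were kept with each library of the comparison left out in turn.

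**Figure D4:**
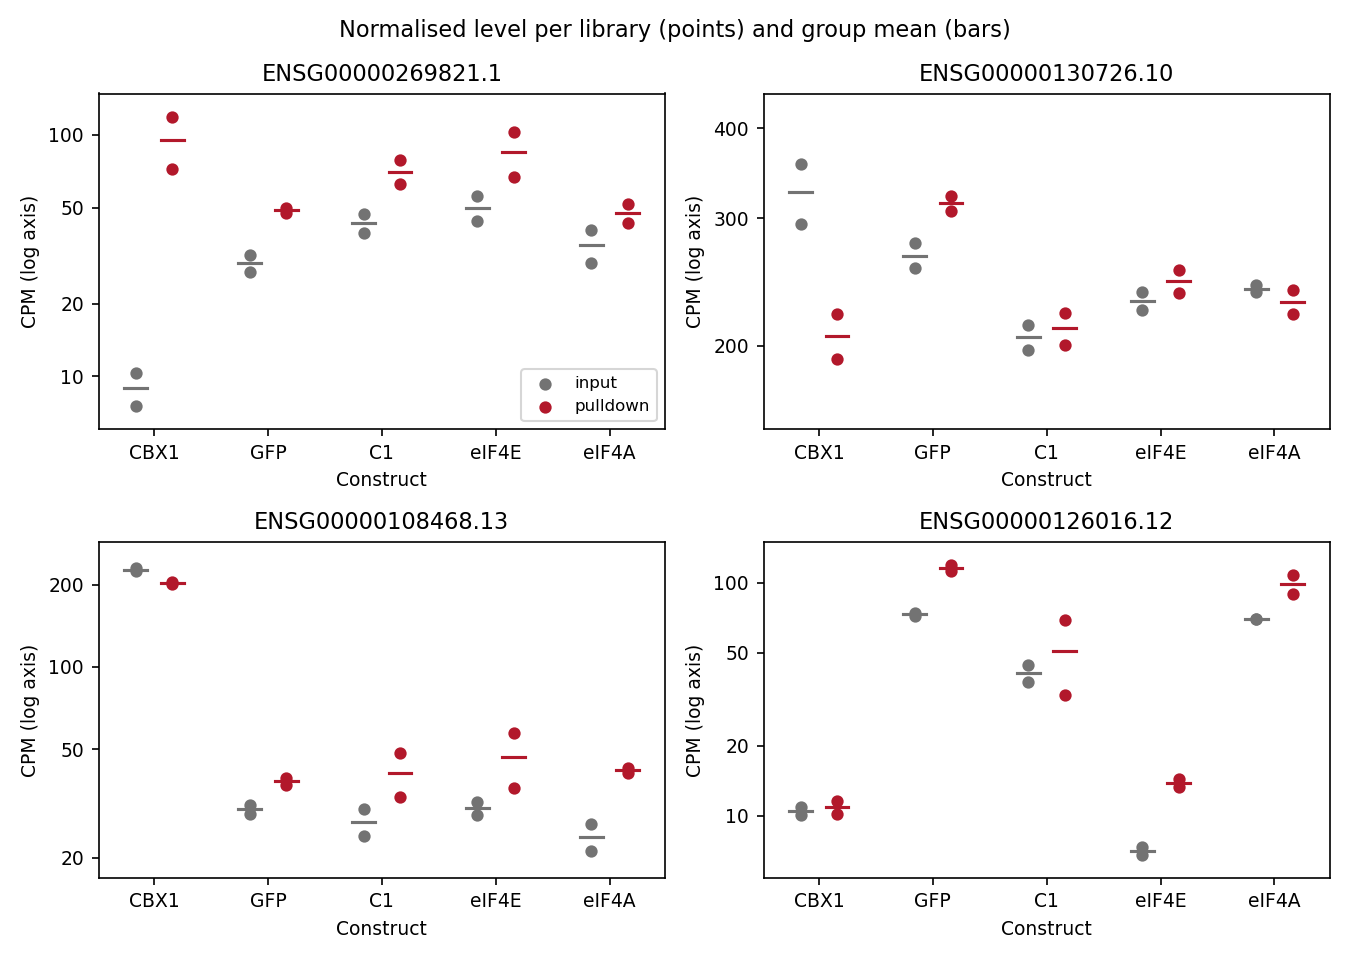
Normalised level in CPM, on a log axis that differs between panels, of the 4 printed IDs in inputs (grey) and pulldowns (red) of the 5 constructs; points are libraries and bars are means of 2. ENSG00000269821.1 is low in the CBX1 inputs, ENSG00000108468.13 is high in both CBX1 fractions, and ENSG00000126016.12 is low in both CBX1 and both eIF4E fractions.

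Other strong pulldown calls had near-equal inputs. The fifth higher ID by size, at mean levels of at least 3 log2 CPM, measured 11.5 and 10.9 CPM in the CBX1 pulldowns against 2.92 and 2.62 in the GFP pulldowns. Its inputs held 8.81 and 9.10 CPM for CBX1 and 10.9 and 9.16 for GFP. The pulldown difference was 1.996 ± 0.46 (SE; edgeR adjusted p = 0.0203). The input-adjusted one, 2.16 ± 0.62, did not reach the threshold (edgeR adjusted p = 0.248), with 6 counts in each GFP pulldown. The eighth lower ID measured 21.6 and 18.3 CPM in the CBX1 pulldowns and 60.8 and 66.8 in the GFP pulldowns. Its inputs held 14.5 and 14.6 CPM for CBX1 and 10.4 and 18.8 for GFP, which overlapped. GFP gave 2.12 in log2 pulldown over input, eIF4A 1.22, eIF4E 0.84, C1 0.66 and CBX1 0.46. This RNA was thus above input with each construct and least so with CBX1.

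The comparison of inputs asked whether total RNA of CBX1 cells differed from that of GFP cells. It called 11 IDs, 0.0885% of those tested, with 3 higher for CBX1 (0.0241%) and 8 lower (0.0644%). An unadjusted p under 0.05 was found for 569 IDs (4.58%). Of the 8 lower ones, 7 changed by more than 1 log2 unit. The smallest of the 3 higher differences belonged to an ID that measured 457 and 479 CPM in the CBX1 inputs and 286 and 304 in the GFP inputs, higher by 0.67 ± 0.11 on the log2 scale (SE; edgeR adjusted p = 0.00797). Its pulldowns held 636 and 586 CPM for CBX1 and 362 and 396 for GFP, a difference of 0.69, so the input-adjusted value was 0.02. One lower ID had 0 and 0 counts in the CBX1 inputs against 60 and 40 in the GFP inputs. Its CBX1 pulldowns held 6 and 4 counts against 77 and 77 in the GFP pulldowns, so it was low in both fractions. The count of 11 was 4 whichever of the 4 inputs was left out, 161 with only the 4 inputs in the model and 97 with only the 10 naive inputs.

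Calls were more frequent among IDs with more counts. The median SE of the input-adjusted difference was 1.05 log2 units below a mean of 3 log2 CPM, 0.55 at 3 to 5, 0.31 at 5 to 7 and 0.20 at 7 and over. The input-adjusted calls numbered 0 of 4164, 1 of 6053, 4 of 1947 and 15 of 263 in these classes, and the smallest called difference was 1.82, 1.501 and 0.74 in the last 3. The direct pulldown comparison called 0.504%, 1.01%, 4.11% and 10.6% of the same classes. A difference of 1 log2 unit was not detectable in most IDs at this depth once inputs were subtracted. Counts may include amplified copies of a fragment, since the labels describe no molecular identifiers.

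**Figure D5:**
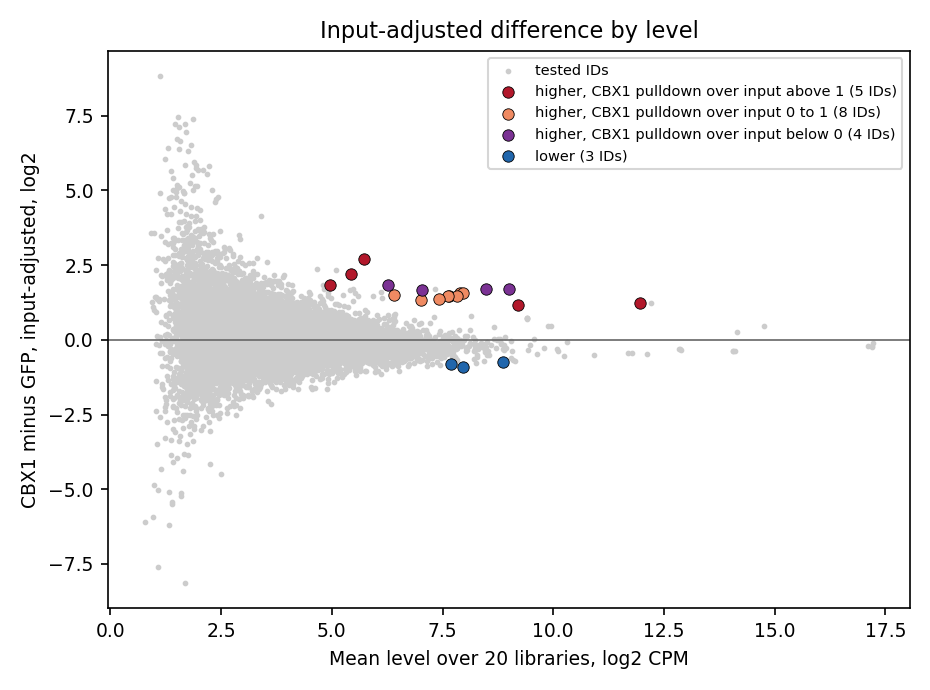
Input-adjusted log2 difference of CBX1 minus GFP against mean level in log2 CPM over the 20 naive libraries, for all tested IDs (grey) and the 20 called ones (coloured). The spread narrows with level, and 19 of the called IDs lie at a mean of at least 5 log2 CPM.

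The threshold cut through RNAs of similar size. The 3 IDs nearest outside it had log2 differences of 1.48, 1.41 and 1.85 with edgeR adjusted p = 0.0552, 0.0590 and 0.0627. The 3 nearest inside had 1.38, 1.46 and 1.82 with edgeR adjusted p = 0.0383, 0.0383 and 0.0474. The first 2 outside had pulldown differences of 1.33 and 1.39 and input differences of -0.15 and -0.02, within or close to the ranges of the second profile.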

How the data were processed

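RNA was measured in HEK293T cells carrying 5 APEX constructs. The deposited table holds unnormalised counts for 60483 versioned Ensembl IDs, made by the authors with cutadapt, HISAT2 and featureCounts on GRCh38, per the submitters' processing notes. The tools' versions, the strand setting and the handling of multiply matching reads were not given in the sources used here.

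Groups were taken from sample titles. The other 17 libraries of the series, all in a second count table, were not used. All 20 naive libraries were fitted with edgeR 4.0.16 in R 4.3.3 (filterByExpr, TMM, estimateDisp, robust glmQLFit, 2-sided quasi-likelihood F test, group means, Benjamini-Hochberg adjustment over 12427 IDs), so groups share 1 estimate of spread per ID. Each SE is the size of the log2 change over the root of F. Log2 CPM used a prior count of 2. The edgeR step was tested on simulated data.

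Alternatives were library size, DESeq2 1.42.0, other filters, fewer libraries, a replicate block and each library left out. Members and lists were chosen with earlier results of these data known. Deviations of same-numbered libraries correlated at -0.08 to 0.05 over 2210 IDs, so numbers were not taken as pairs.

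The rule for named genes took every ID called after input adjustment, the leading pulldown and input calls, members of gene lists and the bait's family. No ID had a name, so 4 IDs are printed: the leading call in each direction, input-adjusted and direct, at a mean of at least 3 log2 CPM, and, for the direct one, at least 10 counts in each of the 8 libraries. The last condition and the profiles were set after values were seen.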

Additional observations from a re-analysis of the deposited data

Results flagged for a closer look

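The pulldown over input of CBX1 and of GFP differed in 20 IDs, where edgeR tested the gap between the constructs itself. The leading increase was that of ENSG00000269821.1, higher by 2.69 ± 0.41 on the log2 scale (SE; edgeR adjusted p = 0.00567), and the leading decrease that of ENSG00000130726.10, -0.90 ± 0.17 (SE; edgeR adjusted p = 0.0282).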

How the results depend on the processing

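The input-adjusted count of 20 was 44 with DESeq2, 37 with a mean of at least 5 log2 CPM, 38 with only the libraries compared and 0 to 21 with 1 library left out. It was 25 with library size and 30 without a count filter, all higher in both, and 20 without the 10 highest IDs. With the replicate block it was 2, both higher and both of the first profile, against 132 of 190 for the pulldowns and 10 of 11 for the inputs; an eIF4A input without a number was left out of that fit. The pulldown count of 190 was 109 with library size, 28 with only the 10 pulldowns and 36 to 142 with 1 library left out. The input count of 11 was 5 with library size, 20 with a mean of at least 5 log2 CPM, 161 with only the libraries compared, 97 with only the 10 inputs and 4 with any of the 4 inputs left out. Without C1 pulldown replicate 1, which is part of none of these comparisons but enters the estimate of spread, the counts were 61, 478 and 26, and 16 of the 20 IDs were among the 61. This alternative and those with only pulldowns or only inputs were chosen after seeing the data. DESeq2 and edgeR shared 17 of the 20, and DESeq2 gave no adjusted p for the other 3, which include ENSG00000269821.1 and are all of the first profile. With library size the median of all tested IDs moved from 0.02 to 0.17 in the input-adjusted comparison. No difference of the 4 printed IDs changed sign in any setting run. The cause of these changes was not tested.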
